A study of Mus musculus with 37 samples.

Results

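The 8 mouse genes described here, Ctsj, Ctsr, Ctsm, Ctsq, Cts3, Cts6, Cts7 and Cts8, are the placental-type cathepsins of the series, matched by symbol to 8 of its 52636 counted genes. The family was chosen by its measured counts in D542G placebo and WT placebo mammary cells, so those 2 groups are described below without a test, as is every comparison that uses either of them. RNA had been sequenced from mature luminal cells sorted by flow cytometry from mouse mammary glands, in 37 libraries. The groups combined 3 forms of Esr1, the gene of estrogen receptor alpha, with 4 treatments: D542G, Y541S and WT, each with E2, P4, both hormones (E2+P4) or placebo. All mice had been raised to 8 weeks and ovariectomized before they carried pellets for 8 days. Each of 11 groups held 3 libraries, and WT P4 held 4. The labels call the samples biological replicates but do not state whether a library stands for 1 animal or several. The p-values below reflect how far libraries of a group lie from each other, with that spread estimated over all 12 groups together. Technical differences may be part of it. The labels give the Esr1 form as a mutation, and the sources used here do not give how the alleles were made, in which cells, their zygosity or the strain. Ovaries had been removed in every group, the placebo and WT groups included.

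Cysteine cathepsins are proteases of the papain family that are made as inactive proenzymes and mostly work in lysosomes. In mice and rats a group of genes related to cathepsin L arose by tandem duplication, and its members are known for expression in the trophoblast of the placenta, where Cts7 and Cts8 have been linked to the giant cells that invade the uterine wall and Ctsq marks giant cells of the labyrinth. Mature luminal cells are the hormone-sensing cells of the mammary duct: estrogen receptor alpha and the progesterone receptor are transcription factors in them that E2 and P4 activate. D542G and Y541S change the ligand-binding domain of the receptor and are the mouse counterparts of substitutions found in human breast cancers that no longer respond to hormone therapy.

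The 8 genes lie in 1 array on chromosome 13 (GRCm38), all on the minus strand, and together span 569.9 kb. Ctsj is at 61000179-61005959, Ctsq at 61035024-61040631, Ctsr at 61159204-61164256 and Cts6 at 61195132-61203410. Cts8 follows at 61246745-61255358, Cts7 at 61352461-61358197, Ctsm at 61535743-61541839 and Cts3 at 61564630-61570127. Their merged exons form 8 blocks, or 7 in Cts7 and Cts3. Since the genes are copies of each other, reads could be placed on the wrong member. The coding sequences of the 28 pairs shared 68% to 88.6% of aligned bases, with Ctsm and Cts3 the closest pair and Ctsr and Cts6 at 80.6%. In spite of that likeness, every stretch of 50 bases in the annotated transcripts of Ctsj, Ctsr, Cts6 and Cts7 occurred in no other annotated gene, and 99.6% of those of Ctsq were likewise its own. At 75 bases the share of Ctsq was 100%. The shares were lower for Cts8 (47.6% of 50-base stretches), Ctsm (77.5%) and Cts3 (92%), for which stretches recurred in 162 other genes in the case of Cts8, and in each other, Ctsm-ps2 and Gm49352 in the case of Ctsm and Cts3. Other counted genes also overlap 86.85% of the Cts8 span, 56.59% of Ctsm and 64.48% of Cts3, but 0% of the other 5. A low count of those 3 genes is therefore not read here as absence. The check used exact matches to spliced transcripts, so introns, unannotated copies and reads with mismatches are not covered, and the read length, the aligner and its treatment of multi-mapped reads are also missing from the labels and file headers.

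The 250 bases before the RefSeq start of each gene (GRCm38.p6, minus strand, read 5′ to 3′ towards the gene) are printed for the 4 members with counts in many libraries and for Cts7, which had none, because these genes share an array but not a pattern. They are chr13:61005926-61006175 for Ctsj, chr13:61164189-61164438 for Ctsr, chr13:61203393-61203642 for Cts6, chr13:61040598-61040847 for Ctsq and chr13:61358197-61358446 for Cts7. Capitals mark the CCAAT box, the motif TTTAAA and an arm of the estrogen response element (letters GGTCA), each on either strand, and in Cts7 a forward and a reverse CCAAT overlap.
Ctsj: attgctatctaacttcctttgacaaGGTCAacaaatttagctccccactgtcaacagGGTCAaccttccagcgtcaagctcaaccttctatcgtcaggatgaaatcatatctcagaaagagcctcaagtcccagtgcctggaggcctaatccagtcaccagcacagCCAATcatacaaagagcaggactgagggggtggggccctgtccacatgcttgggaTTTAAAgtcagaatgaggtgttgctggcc
Ctsr: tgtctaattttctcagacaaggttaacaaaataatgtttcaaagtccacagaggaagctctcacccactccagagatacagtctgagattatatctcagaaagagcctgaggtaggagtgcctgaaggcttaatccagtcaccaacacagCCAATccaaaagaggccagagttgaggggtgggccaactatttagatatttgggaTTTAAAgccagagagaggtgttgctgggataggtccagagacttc
Cts6: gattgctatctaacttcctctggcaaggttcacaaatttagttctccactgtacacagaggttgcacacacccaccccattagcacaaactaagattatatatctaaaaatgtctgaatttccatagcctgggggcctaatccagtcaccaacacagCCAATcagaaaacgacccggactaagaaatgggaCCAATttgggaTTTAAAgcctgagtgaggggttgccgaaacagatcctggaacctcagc
Ctsq: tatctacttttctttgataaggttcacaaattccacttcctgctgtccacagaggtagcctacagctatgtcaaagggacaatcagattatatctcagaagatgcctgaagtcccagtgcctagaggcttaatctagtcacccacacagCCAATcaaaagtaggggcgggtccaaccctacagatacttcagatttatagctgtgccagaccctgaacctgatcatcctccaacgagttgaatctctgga
Cts7: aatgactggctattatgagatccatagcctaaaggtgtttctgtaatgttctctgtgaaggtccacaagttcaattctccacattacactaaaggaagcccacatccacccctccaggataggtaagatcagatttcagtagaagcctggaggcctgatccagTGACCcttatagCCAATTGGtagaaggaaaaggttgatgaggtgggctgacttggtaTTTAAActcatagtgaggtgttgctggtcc

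These motifs were picked after the sequences had been read, so matches are a description. CCAAT occurred in 7 of the 8 members and in 33.8% of 32851 promoters of this length. TTTAAA occurred in 7 of the 8 and in 12.1% of all. The longest stretch shared by the 4 members with counts in many libraries was CACAGCCAATC, which holds a CCAAT box. It stood in Ctsj (from base -89), Cts6 (-98), Ctsr (-105) and Ctsq (-106), counted from the start, and not in Cts7, Cts8, Ctsm or Cts3. Of all promoters 0.113% held it, but its presence in the 4 follows from how it was picked. GGTCA, a single arm of the estrogen response element, occurred in Ctsj, Cts8 and Cts7 and in 35.2% of all. The whole element, with GGTCA and TGACC 3 bases apart, was in none of the 8 windows and in 0.0639% of all. TGTTCT, a single arm of the element of the progesterone and glucocorticoid receptors, was in Cts7 and in 16.1% of all, GATAA was in Ctsq and in 22.6% of all, and TGANTCA, an AP-1 site, was in no member and in 6.75% of all. Each motif was searched on both strands. Against the Ctsj window, 64.8% of aligned bases were identical in Ctsr and in Cts6, 58.7% in Ctsq and 55.9% in Cts7.

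Library totals ran from 25.69 M to 52.24 M counts with a median of 41.26 M, with the lowest totals, up to 31.33 M, in those whose identifiers belong to a later series: replicates 4 and 5 of WT P4 and replicate 5 of Y541S placebo. Luminal keratins were high in every library, with Krt8 at 839 to 3260 CPM and Krt18 at 3580 to 10000 CPM, while the leukocyte gene Ptprc stayed at or below 6.47 CPM. Genes of other cell types reached higher levels in some libraries. The highest values were 281 CPM for Krt5, 286 for Krt14, 68.6 for Col1a1 and 57.5 for Pecam1, with medians of 4.75, 21, 2.18 and 10.2 CPM. The sum of 7 basal genes was 902 CPM in WT placebo 2 and 817 CPM in WT P4 2, and that of 9 leukocyte genes 132 CPM in WT E2 1. Of the 8 members, Ctsj, Ctsr, Ctsq and Cts6 passed the filter on low counts and entered the fit of 18426 genes. They passed through the groups in which they were high, so counts of called members are not counts over the whole family. Nor can those counts be weighed against the shares of all tested genes given below. Levels below are CPM, counts scaled to a common library size after adjustment by trimmed mean of M values, and a gene was called at an adjusted p under 0.05 in edgeR's quasi-likelihood test over all tested genes.

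**Figure D1:**
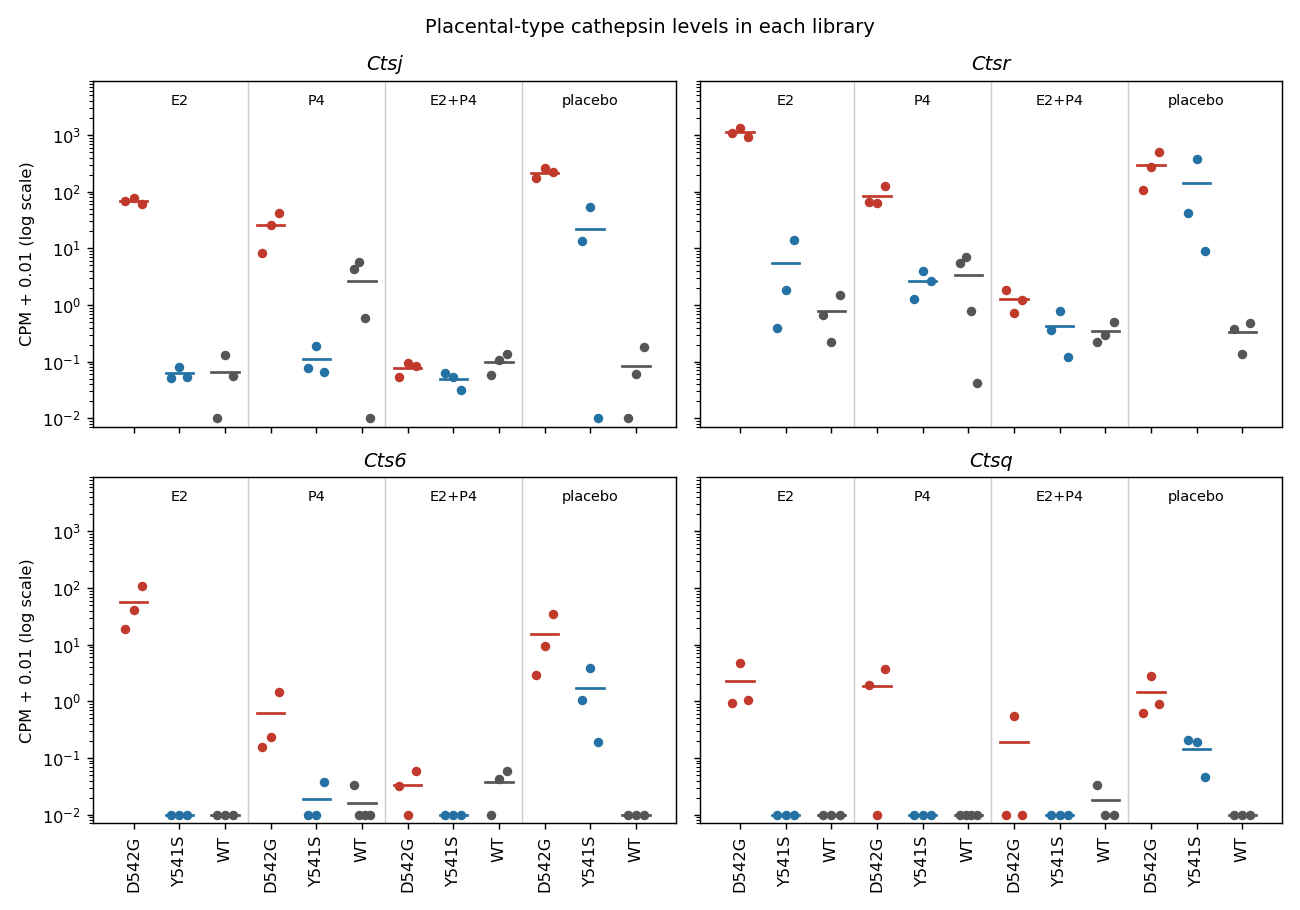
Levels of Ctsj, Ctsr, Cts6 and Ctsq as CPM + 0.01 on a log axis, 1 point per library and a bar at the mean of each group, with treatments side by side and D542G, Y541S and WT within each. D542G libraries stood highest under E2, P4 and placebo for Ctsj and Ctsr on average, and Ctsj was at most 0.125 CPM in the E2+P4 libraries.

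Under E2, all 4 tested members were far higher in D542G than in WT cells, and Ctsr stood high among all genes by count. Ctsj had 67.7, 77.4 and 59.8 CPM in the D542G E2 libraries, against 0, 0.121 and 0.0449 CPM in the WT E2 libraries. The groups lay far apart, and all 3 D542G E2 libraries were close to each other. Summed counts were 7137 in D542G E2 and 6 in WT E2, a ratio per library size of 1430 (exact 95% interval 655 to 3890, counting error only), and the fitted log2 fold change was 10.37 ± 1.6 (SE, edgeR adjusted p = 1.47e-05). Ctsr had 1100, 1330 and 939 CPM in D542G E2, against 0.658, 0.212 and 1.5 CPM in WT E2. It ranked between 79 and 122 among all genes by count in the 3 D542G E2 libraries and took 0.0865% to 0.114% of their counts. Its log2 fold change was 10.43 ± 1.51 (SE, edgeR adjusted p = 7.12e-06).

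The less abundant members, Cts6 and Ctsq, were higher as well, against a group with no count. Cts6 had 19.2, 41.6 and 108 CPM in D542G E2 and 0 in all 3 WT E2 libraries, which makes it at least 2300-fold higher by a floor of 3 counts over the group (edgeR adjusted p = 9.54e-06). Ctsq had 0.937, 4.76 and 1.04 CPM in D542G E2 and 0 in WT E2, at least 85.1-fold higher by the same floor (edgeR adjusted p = 0.00995). All 4 calls were upward where 15.4% of all tested genes were called higher and 29.1% in either direction. The 4 had passed the filter through groups in which they were high, so their count cannot be weighed against these shares. In bulk libraries like these, fewer cells of a type and less RNA per cell cannot be told apart.

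Under P4 the 4 tested members were again higher in D542G than in WT cells, by less for Ctsj and Ctsr, and some WT libraries also held counts. Ctsj had 8.21, 25.8 and 42.6 CPM in D542G P4, against 4.32, 5.73, 0.576 and 0 CPM in the WT P4 libraries numbered 2, 3, 4 and 5. The groups did not overlap, but the WT P4 libraries were spread over the whole range from none to several CPM. Its log2 fold change was 3.25 ± 0.94 (SE, edgeR adjusted p = 0.0212). The call was lost without D542G P4 2 (adjusted p = 0.0509), D542G P4 3 (0.0855), WT P4 4 (0.0672) or WT P4 5 (0.0511), and with these 2 groups fitted alone (0.132). Within the first identifier series, which leaves WT P4 2 and 3, it was 2.34 (edgeR adjusted p = 0.0105).

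Ctsr had 65.4, 63 and 127 CPM in D542G P4, against 5.5, 6.95, 0.768 and 0.0318 CPM in WT P4, a log2 fold change of 4.66 ± 1.04 (SE, edgeR adjusted p = 0.003). Every D542G library was at least several times above every WT library, and within the first identifier series the value was 3.78 (edgeR adjusted p = 0.025). Cts6 had 0.149, 0.225 and 1.43 CPM in D542G P4, against 1 count in the 4 WT P4 libraries together, and its summed counts of 88 and 1 gave a ratio of 93.3 (exact 95% interval 16.3 to 3730, counting error only; edgeR adjusted p = 0.0116). Ctsq had 1.97, 0 and 3.71 CPM in D542G P4 and 0 in WT P4, at least 94-fold higher by the floor over the group (edgeR adjusted p = 0.0131), although 1 D542G library had none. Both calls were lost within the first identifier series (adjusted p = 0.0807 for Cts6 and 0.0914 for Ctsq), and that of Cts6 also without D542G P4 3 (0.105). All 4 tested members were called higher here, where 6.24% of tested genes were. Since they passed the filter through groups in which they were high, their count cannot be weighed against that share.

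With both hormones the difference was not called for any member. Ctsj had 0.0447, 0.0829 and 0.0735 CPM in D542G E2+P4, against 0.048, 0.096 and 0.125 CPM in WT E2+P4, which overlap. Ctsr had 1.81, 0.725 and 1.23 CPM in D542G E2+P4, against 0.216, 0.288 and 0.499 CPM in WT E2+P4. The Ctsr groups did not overlap, but the log2 fold change of 1.89 ± 1.39 was close to its SE (edgeR adjusted p = 0.481). Cts6 had 3 counts in each of the 2 groups. Ctsq had 26 counts in D542G E2+P4, all in 1 library, and 1 in WT E2+P4. In edgeR no member was below an unadjusted p of 0.05, where 6.69% of all tested genes were called in either direction, and no member was called in DESeq2.

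The difference between D542G and WT depended on the treatment for Ctsj, Ctsr and Cts6. The log2 fold change of E2+P4 over E2 in D542G minus that in WT was -10.76 ± 3.05 for Ctsj (edgeR interaction, adjusted p = 0.0115), -8.54 ± 2.1 for Ctsr (0.00388) and -14.36 ± 3.71 for Cts6 (0.00819), where 11.5% of genes were called lower. With WT groups at or near 0 counts, these sizes depend on the prior count of the fit. Without WT E2+P4 3 the values for Ctsj (-10.41, adjusted p = 0.0855) and Cts6 (-13.56, 0.129) were no longer called, and that for Ctsr was. The difference between D542G and WT was also larger under E2 than under P4, by 7.12 ± 1.8 for Ctsj (edgeR adjusted p = 0.00375) and 5.76 ± 1.57 for Ctsr (0.00664), where 13.6% of genes were called higher. Between E2+P4 and P4 no member's interaction was called, where 1.41% of all tested genes were called. There edgeR gave Cts6 an unadjusted p of 0.0465 and the other 3 members larger ones.

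**Figure D2:**
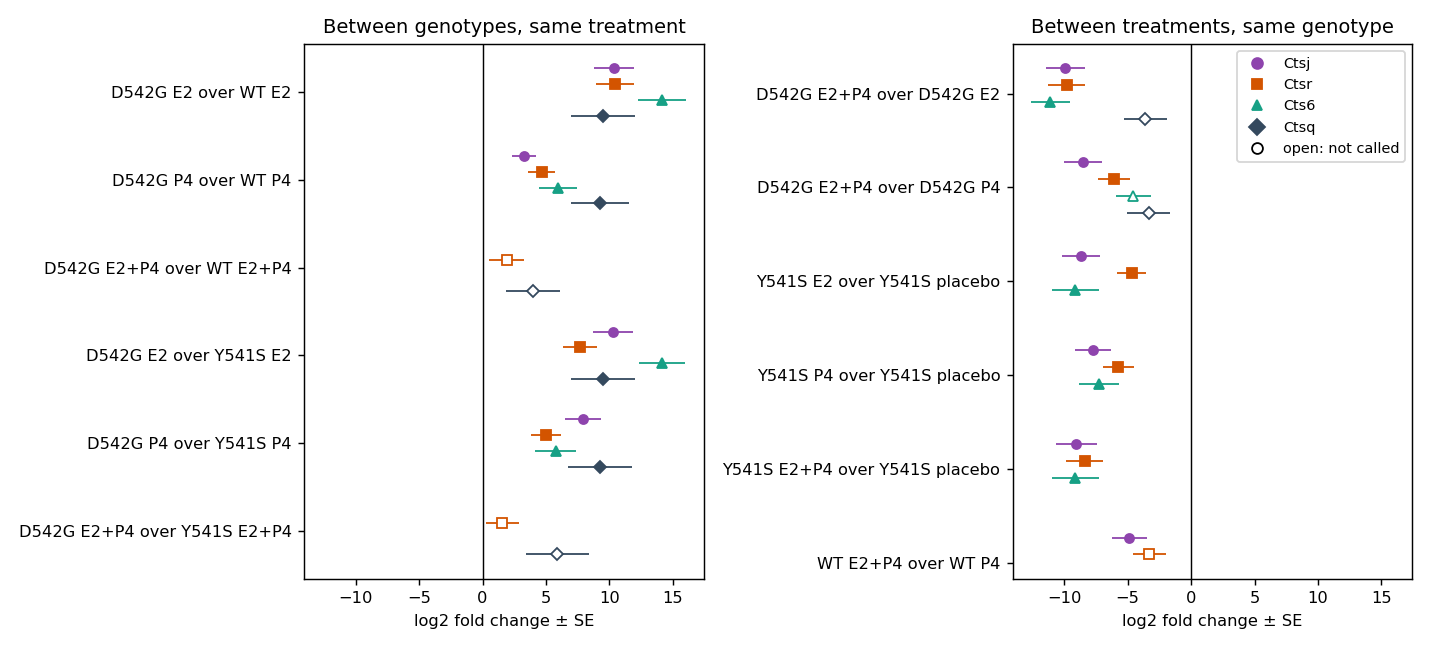
Fitted log2 fold changes with SE for the 4 tested members, between genotypes at the same treatment (left) and between treatments in the same genotype (right), with open symbols where the gene was not called and no symbol where both groups together held 20 counts or fewer. Values against a group with 0 counts depend on the prior count of the fit. The drawn values of D542G lie to the right of 0 under E2 and under P4, and the right panel shows 6 of the comparisons (D542G E2+P4 over E2 and over P4, Y541S with each of the 3 hormone treatments over placebo, and WT E2+P4 over P4), in which all drawn symbols lie to the left of 0.

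The placebo groups are those in which the family was noticed. Ctsj had 177, 258 and 219 CPM in D542G placebo, 13.6, 52.9 and 0 CPM in the Y541S placebo libraries numbered 2, 3 and 5, and 0, 0.0511 and 0.168 CPM in WT placebo. Ctsr had 108, 269 and 497 CPM in D542G placebo, 41.6, 373 and 8.81 CPM in Y541S placebo and 0.366, 0.128 and 0.477 CPM in WT placebo. Cts6 had 2.91, 9.58 and 34.5 CPM in D542G placebo, 1.03, 3.91 and 0.18 CPM in Y541S placebo and 0 in WT placebo. Ctsq had 0.613, 2.84 and 0.874 CPM in D542G placebo, 0.196, 0.178 and 0.036 CPM in Y541S placebo and 0 in WT placebo. The Y541S placebo libraries lay far apart from each other in Ctsj and Ctsr, and the lowest of them, Y541S placebo 5, had no Ctsj count and belongs to the later identifier series. Marker sums of other cell types differed among these libraries too, in both directions. The summed level of 6 fibroblast genes was 4040 and 4100 CPM in Y541S placebo 2 and 3, the libraries with Ctsj counts. It was 441 CPM in Y541S placebo 5, 250 to 920 CPM in D542G placebo and 37.5 to 279 CPM in WT placebo. Col1a1, 1 of the 6, reached at most 68.6 CPM in any library, so the high sums came mostly from others of the 6, which are not named here. In Y541S placebo 2, 3 and 5, endothelial sums were 17.4, 44.4 and 99.3 CPM and leukocyte sums 20.2, 19.9 and 51.7 CPM. The part of these markers in the cathepsin levels was not tested.

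In Y541S cells 3 of the 4 tested members were called lower with each hormone treatment than with placebo, but most of these calls rested on Y541S placebo 2 and 3. Under E2, Ctsj had 0.042, 0.071 and 0.0433 CPM and Ctsr 0.378, 1.82 and 14.2 CPM. Under P4, Ctsj had 0.0686, 0.179 and 0.0555 CPM and Ctsr 1.28, 3.96 and 2.67 CPM. Under E2+P4, Ctsj had 0.0539, 0.0434 and 0.0221 CPM and Ctsr 0.351, 0.782 and 0.111 CPM. Y541S placebo 5, at 0 CPM of Ctsj, lay below all of these, so the Ctsj groups overlap, and so do the Ctsr groups with E2 but not with P4 or E2+P4.

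The log2 fold changes over Y541S placebo were -8.67 ± 1.52 for Ctsj with E2 (edgeR adjusted p = 0.00104), -7.7 ± 1.42 with P4 (6.44e-04) and -9.04 ± 1.58 with E2+P4 (1.98e-04). For Ctsr they were -4.69 ± 1.16 with E2 (edgeR adjusted p = 0.0167), -5.74 ± 1.23 with P4 (0.00266) and -8.39 ± 1.44 with E2+P4 (1.61e-04). Cts6 had 0, 1 and 0 counts in all under E2, P4 and E2+P4, against 201 in Y541S placebo, and was at least 84.4-fold lower with E2 (edgeR adjusted p = 0.00603) and at least 79.6-fold lower with E2+P4 (0.00168) by the floor of 3 counts over the group. With P4 its log2 fold change was -7.26 ± 1.57 (edgeR adjusted p = 0.0046). Ctsq had 16 counts in Y541S placebo and 0 under each hormone, and was not called. Over all tested genes, 2.78% were called lower with E2, 6.13% with P4 and 10.1% with E2+P4. The Ctsr call with E2 rested on few libraries: it was lost without Y541S placebo 3, where the log2 fold change was -2.21 (edgeR adjusted p = 0.319), and without Y541S E2 1 (0.0957) or 2 (0.086). Within these pairs of groups fitted alone, 0 members were called with E2, 0 with P4 and 1 with E2+P4. Within the first identifier series, without Y541S placebo 5, all 9 of these calls were kept, with log2 fold changes of -9.25, -8.28 and -9.63 for Ctsj and -5.25, -6.3 and -8.94 for Ctsr, but that placebo group then holds only the 2 libraries with the high fibroblast sums.

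The sum of fibroblast genes also set Y541S placebo 2 and 3 apart from the hormone-treated libraries. The fibroblast sum was 160 to 294 CPM in Y541S E2, 435 to 663 CPM in Y541S P4 and 200 to 556 CPM in Y541S E2+P4, against 4040, 4100 and 441 CPM in Y541S placebo. Of the 6 fibroblast genes, 1 was called lower with E2, 0 with P4 and 1 with E2+P4. A summed level can follow few abundant genes and need not hold for the list as a whole. In a fit without Y541S placebo 2 and 3, chosen after seeing the data, Y541S placebo 5 was left alone and was assumed to vary like the other groups. There 0 members were called with E2, 0 with P4 and 1 with E2+P4. Ctsr had log2 fold changes of -0.68 with E2 (edgeR adjusted p = 0.895), -1.74 with P4 (0.434) and -4.38 with E2+P4 (0.0302), and Cts6 was not called with any treatment (0.256, 0.277 and 0.152). Ctsj, at 0 in the library left, was not called with any of them either.

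The 2 mutants differed from each other under E2 and under P4. The Y541S placebo libraries enter neither comparison. D542G over Y541S, the log2 fold change was 10.29 ± 1.57 for Ctsj with E2 (edgeR adjusted p = 4.22e-05) and 7.9 ± 1.43 with P4 (7.20e-04). For Ctsr it was 7.68 ± 1.33 with E2 (edgeR adjusted p = 1.77e-04) and 5.01 ± 1.19 with P4 (0.00719). Cts6 and Ctsq were called higher in D542G in both comparisons too, where 7.87% of genes were called higher with E2 and 5.37% with P4. As the members had passed the filter through groups in which they were high, their count cannot be weighed against these shares. With P4, the calls of Cts6 and Ctsq were each lost when D542G P4 3 or any 1 Y541S P4 library was left out, and with E2 that of Ctsq was lost without any 1 Y541S E2 library. With E2+P4 no member was called, where 6.81% of all genes were, and edgeR's unadjusted p was below 0.05 for Ctsq alone (0.0301).

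Markers of mammary cell states differed between the mutants as well. With E2 the summed level of 13 hormone-sensing luminal genes was 37400 to 40700 CPM in D542G and 21700 to 25700 CPM in Y541S, and 7 of them were called higher and 0 lower. The 13 include Krt8, Krt18, Krt19 and Epcam, with medians of 1520, 5600, 8840 and 2860 CPM over the 37 libraries, against 100 CPM for Esr1. Such abundant genes weigh more in the sum than the receptor genes, so the sum alone does not measure hormone sensing. The sum of 9 luminal progenitor and alveolar genes was 529 to 1670 CPM in D542G E2 and 2350 to 5520 CPM in Y541S E2, with 0 called higher and 7 lower. With P4 the hormone-sensing sum was 15700 to 20100 CPM in D542G and 19300 to 21500 CPM in Y541S (4 called higher, 1 lower), and the progenitor and alveolar sum was 1110 to 4300 CPM in D542G and 648 to 834 CPM in Y541S (0 called). The fibroblast sum was 261 to 532 CPM in D542G E2 and 160 to 294 CPM in Y541S E2, and 48.3 to 352 CPM in D542G P4 and 435 to 663 CPM in Y541S P4, with 1 of 6 called lower each time. The part of these markers in the difference between the mutants was not tested.

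Y541S over WT gave few calls. With E2, Ctsr had 749 counts in Y541S and 106 in WT, a log2 fold change of 2.74 ± 1.18 that was not called (edgeR adjusted p = 0.128), and the 2 groups overlapped. In the fit without the later identifier series, which removes no library of either group, it was 2.75 (edgeR adjusted p = 0.0476). With P4, Ctsj was lower in Y541S, by a log2 fold change of -4.66 ± 1.33 (edgeR adjusted p = 0.00922), with 13 counts in Y541S P4 and 418 in WT P4, where 13% of genes were called lower. The call of Ctsj with P4 was kept within the first identifier series (-5.56) and lost with the 2 groups fitted alone (adjusted p = 0.0539), and the groups overlapped. No member was called with E2+P4, where 14.5% of all genes were, and none was called with E2, where 12.3% were. In these 2 comparisons edgeR gave an unadjusted p under 0.05 to Ctsr with E2 (0.027) and to no other member.

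Within D542G cells, levels were far lower with both hormones than with either alone for Ctsj and Ctsr, and than with E2 for Cts6. Over D542G E2, D542G E2+P4 had a log2 fold change of -9.92 ± 1.54 for Ctsj (edgeR adjusted p = 2.49e-05), -9.81 ± 1.47 for Ctsr (1.55e-05) and -11.09 ± 1.53 for Cts6 (2.39e-05). In counts, Ctsr had 81, 35 and 50 in D542G E2+P4, against 45633, 38632 and 32620 in D542G E2. Ctsq had 0, 26 and 0 counts in D542G E2+P4, against 39, 138 and 36 in D542G E2, and was not called (edgeR adjusted p = 0.152), but was without D542G E2+P4 2 (0.0244). In this comparison 10.8% of all genes were called lower. Over D542G P4, D542G E2+P4 was lower for Ctsj (log2 fold change -8.51 ± 1.49, edgeR adjusted p = 6.35e-04) and Ctsr (-6.09 ± 1.27, 0.00377), where 2.18% of genes were called lower. Cts6 missed the threshold there (-4.57 ± 1.39, edgeR adjusted p = 0.0629) and passed it without D542G P4 1 (0.0438).

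Between the single hormones in D542G cells, Ctsr and Cts6 were called and Ctsj and Ctsq were not, and whether the members differ from each other in this was not tested. E2 over P4, Ctsr was higher by a log2 fold change of 3.72 ± 1.1 (edgeR adjusted p = 0.0134) and Cts6 by 6.52 ± 1.18 (3.68e-04), where 12.4% of genes were called higher. Ctsj, at 1.42 ± 0.97, and Ctsq, at 0.24 ± 1.5, were not called (edgeR adjusted p = 0.304 and 0.933). Ctsj was called in the fit without the later identifier series (1.4, edgeR adjusted p = 0.0254), which removes no library of either group. The Ctsr call was lost without D542G P4 1 (adjusted p = 0.052) or D542G P4 2 (0.0633). Against D542G placebo, as a description, the D542G E2 mean of Ctsr was higher, at 1120 ± 198 CPM and 291 ± 196 CPM (SD, n = 3 each), while that of Ctsj was lower, at 68.3 ± 8.79 CPM and 218 ± 40.3 CPM. Neither pair of groups overlapped.

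The counts of Ctsr for each count of Ctsj differed between treatments. Ctsr had 16.2, 17.2 and 15.7 counts for each Ctsj count in the D542G E2 libraries. The ratio was 7.97, 2.44 and 2.99 in D542G P4, and 0.607, 1.04 and 2.27 in D542G placebo. It was 3.07 and 7.06 in the 2 Y541S placebo libraries with Ctsj counts, and 1.27, 1.21 and 1.33 in the 3 WT P4 libraries with them. The ratios of D542G E2, D542G P4 and D542G placebo did not overlap, and libraries with few Ctsj counts got no ratio. The exons of the 2 genes add up to 1414 bases in Ctsr and 1425 in Ctsj, so length hardly enters the ratio. Per kilobase of exon, the D542G E2 means were 794 CPM for Ctsr, 47.9 for Ctsj, 41.4 for Cts6 and 1.35 for Ctsq.

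**Figure D3:**
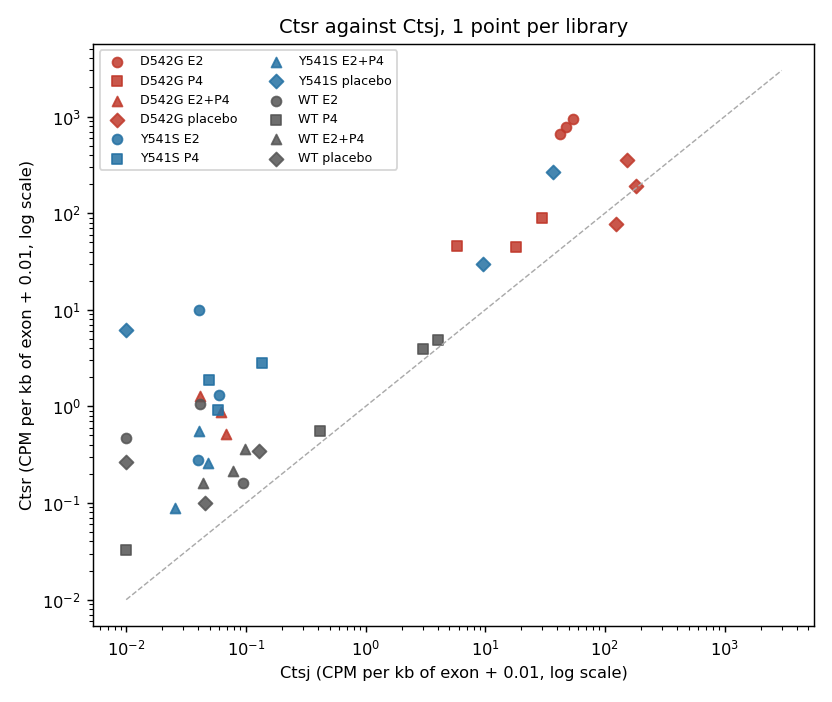
Ctsr against Ctsj, each as CPM per kb of exon + 0.01 on a log axis, 1 point per library, with colour for genotype, shape for treatment and a dashed line at equal levels. The 3 D542G E2 libraries lie far above the line, D542G placebo libraries lie around it, and all E2+P4 libraries sit at the low end of both axes.

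WT cells held the family at low counts, with Ctsj and Ctsr highest in 2 of the WT P4 libraries. In counts, Ctsj had 188, 212, 18 and 0 in WT P4, against at most 6 in any library of the other 3 WT groups. Ctsr had 239, 257, 24 and 1 in WT P4, against 32, 7 and 67 in WT E2. The first 2 WT P4 libraries were high in both genes, and the other 2, which belong to the later identifier series, were low in both. Marker sums differed among these libraries too, in both directions. In WT P4 2, 3, 4 and 5, fibroblast sums were 266, 405, 57.5 and 82.5 CPM. Endothelial sums were 14.6, 16.3, 57 and 64 CPM, and basal sums 817, 71.1, 69.1 and 68.6 CPM. The part of these markers in the cathepsin levels of WT P4 was not tested. WT E2 over WT P4 gave Ctsj a log2 fold change of -5.7 ± 1.49 (edgeR adjusted p = 0.00387), where 16.1% of genes were called lower. WT E2+P4 over WT P4 gave -4.87 ± 1.38 (edgeR adjusted p = 0.0105), where 11.1% were called lower, and that call was lost without WT E2+P4 1 (-4.55, adjusted p = 0.0545). Both calls were also lost with only the groups compared in the fit, and the groups overlapped in both. Within the first identifier series these values were -6.64 and -5.78. Ctsr was not called in either (edgeR adjusted p = 0.171 and 0.065) but was within the first series (0.0303 and 0.0101). In Y541S cells Ctsr was not called for E2+P4 over E2 (-3.7 ± 1.27, edgeR adjusted p = 0.0615), where 10.4% of all genes were. It was called in the fit without the later series (edgeR adjusted p = 0.0156), which removes no library of either group. No member was called for Y541S E2+P4 over P4 or E2 over P4, where 1.68% and 9.73% of all genes were, and among those tests edgeR gave an unadjusted p under 0.05 to Ctsr in the first (0.0482). No member was called for WT E2+P4 over WT E2, where 18.5% of all genes were, nor had an unadjusted p under 0.05 in edgeR.

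Ordered by mean level, Ctsj ran from D542G placebo (218 CPM) through D542G E2 (68.3), D542G P4 (25.5), Y541S placebo (22.2) and WT P4 (2.66) to 7 groups between 0.0398 and 0.101 CPM. Each of the first 2 groups lay clear of the next, and all later neighbours overlapped. Ctsr ran from D542G E2 (1120 CPM) through D542G placebo (291), Y541S placebo (141) and D542G P4 (85.3) to 8 groups between 0.323 and 5.45 CPM. Here D542G E2 and D542G P4 lay clear of the groups after them, and the other neighbours overlapped. Over the 37 libraries, the Pearson correlation of log2 CPM with Ctsj was 0.9 for Ctsr, 0.87 for Cts6 and 0.79 for Ctsq, as a description of libraries that share groups.

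The other 4 members were almost without counts. Cts7, which no other gene overlaps, had 0 counts in all 37 libraries, which by a floor of 3 counts over the group allows from 0.021 CPM in WT P4 up to 0.0285 CPM in D542G E2. Cts8 had 1 count, in D542G P4 2. Ctsm had 9 counts in 3 libraries, at most 5 of them in Y541S placebo 3, and Cts3 had 6 counts, all in Y541S placebo 2. For these 3 the overlaps named above limit what a low count means. Gm49398 and Gm49352, which run across them, had 16 and 15 counts over all libraries.

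Within 500 kb on either side of the array there were 44 other counted genes, of which 29 had no count in any library and 40 had at most 20. Of the 29, other counted genes cover more than 99% of 19, whose lack of counts is not read as absence, and none overlaps the remaining 10. Tpbpa, the marker of the spongiotrophoblast layer, which no other gene overlaps, and Ctsll3, a cathepsin L-like gene, were at 0 in every library. Tpbpb, Ctla2b and Cts8-ps were at 0 too, and 4930486L24Rik had 1 count, but other counted genes cover these 4 in full or nearly so. BC051665 had 6 counts and Ctla2a, whose product resembles a cathepsin propeptide, 18. Of the 3 neighbours in the fit, Dapk1, a protein kinase gene outside the array, was lower in D542G E2 than in WT E2 (92.6 and 174 CPM on average, log2 fold change -0.91, edgeR adjusted p = 9.20e-04) and not called with P4 or E2+P4. Gm7240 and Gm48228 were not called in any of the 3.

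**Figure D4:**
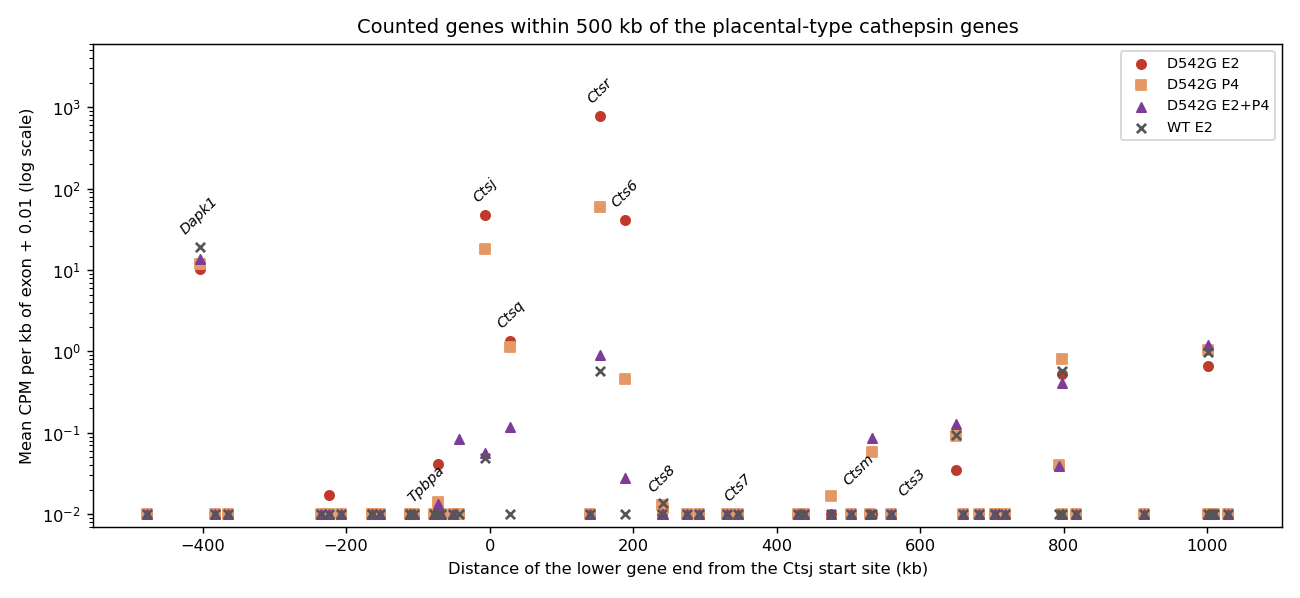
Mean CPM per kb of exon + 0.01, on a log axis, of the 52 counted genes in and within 500 kb of the array, by distance in kb of the lower gene end from the Ctsj start, for D542G E2, D542G P4, D542G E2+P4 and WT E2. Ctsj, Ctsq, Ctsr and Cts6 stand above 1 in D542G E2 while their neighbours in the array lie near the bottom of the axis, and Dapk1, outside the array, lies above all members in D542G E2+P4 and WT E2 and below Ctsr in D542G E2 and D542G P4.

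The classical cathepsins, most of them found in many tissues, were called in both directions. Of all tested genes, 15.4% were called higher and 13.8% lower in D542G than in WT with E2, 6.24% and 6.8% with P4, and 2.12% and 4.56% with E2+P4. Of 14 classical cathepsins tested, 3 were higher and 3 lower in D542G than WT with E2, 1 higher and 2 lower with P4, and 0 higher and 2 lower with E2+P4, with median log2 fold changes of 0.04, -0.08 and -0.45, against 0, 0.027 and 0.021 over all genes. Ctsh, an aminopeptidase-like cathepsin, was lower with E2 (281 ± 6.46 CPM in D542G and 908 ± 287 CPM in WT, SD, n = 3 each; edgeR adjusted p = 9.3e-07) and higher with P4 (log2 fold change 0.92 ± 0.19, 0.00169). Ctse, an aspartic protease of endosomes, was higher with E2, at 660 ± 222 CPM in D542G and 42.8 ± 20.8 CPM in WT (SD, n = 3 each; edgeR adjusted p = 1.45e-05). Ctsf, a lysosomal cysteine protease, was lower with E2 (-1.16 ± 0.18). Ctsb, an abundant lysosomal cysteine protease, was lower with P4 (-0.58 ± 0.19) and E2+P4 (-0.96 ± 0.2). Ctso with P4 (-0.55 ± 0.19) and the legumain gene Lgmn with E2+P4 (-0.68 ± 0.2) were lower too.

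Among 8 tested cystatins and other inhibitors of cysteine proteases, 0 were higher and 3 lower with E2, 1 higher and 1 lower with P4, and 0 higher and 1 lower with E2+P4, D542G over WT. Cst3, the secreted inhibitor cystatin C, was lower with E2 (-2.48 ± 0.37, edgeR adjusted p = 1.07e-05). Cstb, a cytosolic inhibitor, was lower with all 3 treatments (-0.7 ± 0.15, -0.63 ± 0.14 and -1.29 ± 0.15). Serpinb6a was lower with E2 (-0.55 ± 0.21) and higher with P4 (0.74 ± 0.19). Of 15 genes of lysosomal delivery and membrane, 5 were higher and 3 lower with E2, 0 and 2 with P4, and 0 and 4 with E2+P4. With E2 they included Tfeb, a regulator of lysosomal genes (-1.27 ± 0.21), Igf2r, a sorting receptor for lysosomal enzymes (1.45 ± 0.27), and the proton pump gene Atp6v0d1 (0.69 ± 0.14). With E2+P4 the smallest p-values were those of the membrane protein genes Lamp1 (-0.69 ± 0.13) and Lamp2 (-0.86 ± 0.19) and of Gnptg (-0.66 ± 0.16).

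No other listed trophoblast gene was called higher in D542G than in WT with any of the 3 hormone treatments. Of 25 listed, 3 entered the fit, and Tpbpa, Prl3b1, Prl7d1, Prl8a9, Synb and Hand1 had no count in any library. The summed level of the list was 3.56 to 5.81 CPM in D542G E2 and 4.15 to 16.1 CPM in WT E2, and 4.8 to 5.27 CPM in D542G placebo and 7 to 11.2 CPM in WT placebo. Phlda2, an imprinted growth regulator, was lower in D542G than WT with P4 (-1.98 ± 0.44, edgeR adjusted p = 0.00316) and E2+P4 (-3.09 ± 0.49, 2.35e-04), and no list member was called with E2. The sums were 1.51 to 3.57 CPM in D542G P4 and 5.87 to 10.4 CPM in WT P4, and 0.808 to 1.43 CPM in D542G E2+P4 and 5.09 to 12.7 CPM in WT E2+P4.

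Markers of mammary cell states were also called between D542G and WT, largely in opposite directions with E2 and with P4. Some were called with E2+P4 too, where no member was. The summed level of 13 hormone-sensing luminal genes was 37400 to 40700 CPM in D542G E2 and 17100 to 27200 CPM in WT E2, and 10 of them were called higher, among them Prlr (2.93 ± 0.35), Pgr (2.75 ± 0.39) and Prom1 (2.99 ± 0.46), and 1 lower. The sum was 13800 to 15700 CPM in D542G E2+P4. Abundant genes such as Krt8, Krt18, Krt19 and Epcam weigh more in these sums than the receptor genes. For 9 luminal progenitor and alveolar genes the sum was 529 to 1670 CPM in D542G E2 and 4150 to 20100 CPM in WT E2, and 5 were called lower, among them Kit (-4.61 ± 0.54), Aldh1a3 (-4.87 ± 0.58) and Cd14 (-3.38 ± 0.47). With P4 the sums were 15700 to 20100 CPM in D542G and 25600 to 31500 CPM in WT for hormone-sensing genes, of which 6 were called lower, including Esr1 itself (-2.35 ± 0.34), Cited1 (-3.04 ± 0.49) and Ly6a (-2.25 ± 0.43), and 1110 to 4300 CPM in D542G and 1450 to 1820 CPM in WT for progenitor and alveolar genes, of which Csn2, Csn1s1 and Kit were called higher. With E2+P4, Krt18 (-0.83 ± 0.18) was among 5 hormone-sensing genes called lower and no progenitor or alveolar gene was called.

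The part of these shifts in the cathepsin results was not tested. Of 7 basal genes, Oxtr was lower with E2 (-3.61 ± 0.66) and higher with P4 (2.46 ± 0.57) in D542G than in WT, and no other was called. No leukocyte, fibroblast or endothelial marker was called in the 3 comparisons of D542G with WT. Their sums were 10.4 to 98.9 CPM in D542G E2 and 26.6 to 132 CPM in WT E2 for leukocyte genes, 261 to 532 CPM in D542G E2 and 95.7 to 123 CPM in WT E2 for fibroblast genes, and 21 to 107 CPM in D542G E2 and 16.8 to 32.6 CPM in WT E2 for endothelial genes.

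Among 12480 genes whose log2 CPM averaged 0 or more, those whose log2 CPM over the 37 libraries was most like Ctsj, besides Ctsr and leaving the other members aside, were Rab37, a small GTPase of secretory vesicles (Pearson r = 0.88), Selenom (0.84), Crym, which encodes the thyroid hormone-binding crystallin mu (0.82), Tmem159 (0.81), Tcf24 (0.79), Gde1 (0.78), Tsc22d1 (0.77) and Gpsm3 (0.76). Over the 12 group means r was 0.93 for Rab37 and 0.87 for Crym. Rab37 averaged 16 CPM in D542G E2 and 2.64 CPM in WT E2, and 2.72 CPM in D542G E2+P4. Crym averaged 344 CPM in D542G E2 and 31 CPM in WT E2, and 11.8 CPM in D542G E2+P4. Of the 8, Crym (GRCm38, 120186380-120202111, minus strand), Tmem159 (120102353-120120992, plus strand) and Gde1 (118688545-118705778, minus strand) lie on chromosome 7, with 65.4 kb between Tmem159 and Crym. The lowest r belonged to F2rl1 (-0.84), Nfix (-0.79), Rap1gds1 (-0.78) and Rnf19a (-0.78). The Nfix gene, which encodes a transcription factor, averaged 6.1 CPM in D542G E2 and 102 CPM in WT E2.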

How the data were processed

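Per the labels, RNA of sorted mature luminal cells was made into libraries with the Nextera XT kit from cDNA. The authors deposited 1 gene table per library, with raw read counts and RPKM values per gene. Per the submitters' processing notes the build was GRCm38. For the aligner, the counting program, strand use, read length and the treatment of multi-mapped reads, neither labels nor file headers give anything. The deposited RPKM values are per kilobase of a width column that equals the gene span for 85.6% of genes, and they were used only to check the files: the counts made up 87.97% to 90.2% of the library total they imply. Identifiers were matched to symbols for 52489 of 52636 genes with GENCODE M21, and promoters came from RefSeq (GRCm38.p6).

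The counts were tested with edgeR 4.0.16 in R 4.3.3 (robust quasi-likelihood test, filterByExpr with a minimum count of 10, trimmed mean of M values factors of 0.77 to 1.17). The fit had 1 coefficient for each of 12 groups, 25 residual degrees of freedom and a common biological coefficient of variation of 0.458. P-values were adjusted by Benjamini-Hochberg over 18426 genes in each of 24 tested comparisons, and 9 comparisons with a placebo group of D542G or WT were described without a test. Ratios of summed counts have exact 95% intervals, and a group at 0 was set to a floor of 3 counts over the group. Intervals and floors cover counting error only. The fit was also run on simulated data, for D542G E2 over WT E2 only, with modest changes in genes above a minimum mean count. That simulation did not cover groups at 0 counts or fold changes as large as those of the members.

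The members and lists were chosen with earlier results of these data known. Named besides the members were, from each gene list, at most 3 called genes with the smallest p per comparison of D542G with WT, all genes of the list of the array, called neighbours within 500 kb, and the 8 genes most and 4 least like Ctsj by Pearson r of log2 CPM (prior count 2). Uniqueness of sequence was planned on the genome and was checked in annotated transcripts (Biopython 1.88), since no genome was used here. Alternatives were library totals, DESeq2 1.42.0 and its size factors, no filter on low counts, a replicate block, only the groups compared, and fits without single libraries, without the later identifier series or without 3 libraries that stand apart. A fit without Y541S placebo 2 and 3 was added after seeing the data.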

Additional observations from a re-analysis of the deposited data

Results flagged for a closer look

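The difference between genotypes depended on the treatment for several members. The log2 fold change of E2+P4 over E2 in D542G minus that in WT was -10.76 for Ctsj, -8.54 for Ctsr and -14.36 for Cts6. The log2 fold change of E2 over P4 in D542G minus that in WT was 7.12 for Ctsj and 5.76 for Ctsr. All 5 passed the adjusted threshold of edgeR's interaction test. Among the 4 WT P4 libraries, 1 lay apart from the others in a pair of members, each time by a single count: WT P4 4 had 0.032 CPM of Ctsm and WT P4 2 had 0.023 CPM of Cts6, with 0 in the other 3. With 3 libraries at 0 a single count always makes the largest gap possible, so the rate of about 1 in 20 groups that chance gives elsewhere does not apply, and a single count shows no difference between libraries.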

How the results depend on the processing

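Over all alternatives, 863 log2 fold changes of members kept their direction and side of the threshold, 38 lost and 21 gained a call, and 11 changed sign. Of the counts of called members, 328 stayed within 1.5 times the reported count and 35 moved. For D542G over WT under P4 (4 called), 2 were called without the later identifier series and 1 with only the groups compared. For D542G over Y541S under P4 (4), 2 were called with only the groups compared. With only the groups compared, Y541S over WT under P4 (1) had 0, and Y541S with E2, P4 and E2+P4 over placebo (3 each) had 0, 0 and 1. Without both Y541S placebo 2 and 3, an alternative chosen after seeing the data that leaves Y541S placebo 5 alone, the same 3 comparisons also had 0, 0 and 1, and Ctsj, called otherwise, changed sign to 4.15, 5.11 and 3.78 without a call: the library left has no Ctsj count, so the fitted sign depends on the prior count. Y541S over WT under E2 (0) had 1 without the later series, which holds no library of either group. WT E2+P4 over P4 (1) had 2 with library totals, the replicate block, DESeq2 or without the later series, and 0 with only the groups compared. WT E2 over P4 (1) had 2 with the replicate block or without the later series, and 0 with only the groups compared. Y541S E2+P4 over E2 (0) had 1 with the replicate block, with DESeq2, without the later series or without the libraries that stand apart, and Y541S E2+P4 over P4 (0) had 1 with only the groups compared. Leaving out 1 library gave 4 to 4 called members for D542G over WT under E2, 2 to 4 under P4 and 0 to 0 under E2+P4. It gave 3 to 4, 2 to 4 and 0 to 0 for D542G over Y541S under E2, P4 and E2+P4, and 0 to 0, 1 to 1 and 0 to 0 for Y541S over WT. Over Y541S placebo it gave 2 to 3 with E2, 3 to 3 with P4 and 3 to 3 with E2+P4. In D542G it gave 3 to 4 for E2+P4 over E2, 2 to 3 for E2+P4 over P4 and 1 to 2 for E2 over P4. In WT it gave 0 to 0, 0 to 2 and 1 to 1, and in Y541S 0 to 1, 0 to 0 and 0 to 0, for the same 3 comparisons. For the interactions it gave 1 to 3 (E2+P4 against E2), 2 to 2 (E2 against P4) and 0 to 0 (E2+P4 against P4). The other 8 sign changes were of fold changes that were not called. Ctsq for D542G over WT under E2+P4 ran from -1.93 (without D542G E2+P4 2) to 5.9 when 1 library was left out. Ctsq for D542G E2 over P4 became -0.13 with library totals and -0.56 with the replicate block, and ran from -0.94 (without D542G E2 2; -0.34 without D542G P4 2) to 1.19 without 1 library. Ctsr ran from -0.78 to 0.27 (without WT P4 3) for Y541S over WT under P4, from -0.59 (without Y541S E2+P4 2) to 0.78 under E2+P4, and from -1.27 (without Y541S E2 3) to 1.61 for Y541S E2 over P4. With only the groups compared, fewer samples estimate the spread. Each p-value uses a spread estimated over all groups in the fit, so leaving out libraries of neither group compared can also move a call. For each of the other changes the cause was not tested. Sample numbers do not pair the libraries: the deviations of 3 of 56 same-numbered pairs correlated above 0.1 (range -0.15 to 0.27), and in 0 of 14 comparisons with 3 pairs did all of them. With the replicate block, D542G over WT had 4, 3 and 0 called members under E2, P4 and E2+P4. Depth limits Cts7, Cts8, Ctsm and Cts3 and most groups of Cts6 and Ctsq, which had 3 counts or fewer.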
